A study of Mus musculus with 60 samples.

Results

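The 40 genes described here are ligands, receptors, secreted antagonists, Smad proteins and Id target genes of the BMP, TGF-beta and activin signaling pathways, measured by RNA-Seq in the dorsal and ventral dentate gyrus (DG) of mice from standard housing (SH) or an enriched environment (EE). They were taken from a list of gene symbols, and all 40 were found among the 46480 genes of the count tables and tested among the 17040 genes with enough counts. The list was chosen with earlier results of these data known. Shares of members set against those of all genes below are therefore descriptive and no test. The animals were male C57BL6J mice without genetic modification, weaned on day 22, kept for 8 weeks in SH or EE, and collected at an age of 80 days. EE meant a larger cage with running wheels, toys that were changed and more cage mates, so cage size, group size, running and objects differed together between the housings. Each sample was tissue punched from the DG and pooled over several mice, and the dorsal and ventral samples of a replicate number were taken to be from the same pool. Dorsal punches were taken from coronal and ventral punches from horizontal slices, so region and slicing plane cannot be told apart. The labels name 5 samples for each of the 4 groups. The study left out an SH sample that had RNA of *Xist*, a gene of females. SH replicate 3 was therefore left out here in both regions: *Xist* stood at 12.1 and 34.4 CPM (counts scaled by library size) in its samples and at 0 to 0.657 CPM in the other 18. The groups were thus dorsal SH (n = 4), dorsal EE (n = 5), ventral SH (n = 4) and ventral EE (n = 5), from 9 pools.

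Signals of this family are secreted dimers that bring together type I and type II receptor kinases. The type I receptor then phosphorylates a receptor-activated Smad, which joins *Smad4* and enters the nucleus: BMPs act mainly through *Smad1* and *Smad5*, and TGF-betas, activins and nodal through *Smad2* and *Smad3*. Follistatin binds activins, noggin, chordin and gremlin bind BMPs, and the inhibitory Smads *Smad6* and *Smad7* act within the cell. In the adult DG, BMP signals are known to hold neural stem cells at rest, noggin to oppose them, and activin A to be made by neurons after strong activity.

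For 27 of the 40 members, RefSeq promoter sequences (GRCm38.p6) were at hand. The window of 250 bases before the most upstream RefSeq start site is described for 3 of them: *Acvr1c*, the type I receptor that was called for EE, and *Inhba* and *Inhbb*, the activin subunits that differed in opposite directions between the regions. For *Acvr1c* the Gencode gene starts farther upstream than the RefSeq start, so that 137 of the 250 bases lie inside the gene, and the 113 bases outside it are shown. The sequences run 5′ to 3′ on the strand of the gene, and capitals mark CpG dinucleotides, the sites of most DNA methylation.
Acvr1c: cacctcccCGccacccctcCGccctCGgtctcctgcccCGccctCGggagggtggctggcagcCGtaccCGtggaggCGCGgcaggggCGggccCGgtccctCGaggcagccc
Inhba: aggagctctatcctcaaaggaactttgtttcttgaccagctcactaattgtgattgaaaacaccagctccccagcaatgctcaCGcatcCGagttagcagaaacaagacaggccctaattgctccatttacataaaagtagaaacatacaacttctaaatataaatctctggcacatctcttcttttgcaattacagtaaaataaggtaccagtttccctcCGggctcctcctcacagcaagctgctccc
Inhbb: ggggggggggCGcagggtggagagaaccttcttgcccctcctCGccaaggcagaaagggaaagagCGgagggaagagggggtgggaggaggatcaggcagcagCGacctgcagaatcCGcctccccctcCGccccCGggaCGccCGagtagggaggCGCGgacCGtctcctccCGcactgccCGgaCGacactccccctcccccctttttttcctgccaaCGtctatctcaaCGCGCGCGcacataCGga
The *Acvr1c* bases shown (chr2:58357896-58358008, minus strand) held 12 CpGs, and its whole window held 32 and was 79.6% G and C. The *Inhba* stretch (chr13:16011601-16011850, plus strand) held 3 CpGs and was 43.2% G and C, and the *Inhbb* stretch (chr1:119422249-119422498, minus strand) held 21 CpGs and was 68.0% G and C. Of the 27025 promoters in the table, 95.6% had fewer CpGs in this window than *Acvr1c*, 29.6% fewer than *Inhba* and 83.9% fewer than *Inhbb*. The pair of activin subunits thus had promoters of different kinds, CpG-poor in *Inhba* and CpG-rich in *Inhbb*. The 27 members had a median of 22 CpGs, between 1 in *Bmpr1b* and 49 in *Acvr2a*, against a median of 6 over all promoters. The median share of G and C was 68.8% over the 27 members and 52.0% over all promoters. In the window of 300 bases that also holds 50 bases after the start, the letters GGCGCC, a BMP Smad element, were found on either strand in 9 of 27 member promoters (33.3%) and in 12.0% of all promoters. The palindrome GTCTAGAC, which *Smad3* and *Smad4* can bind, was found in 1 member promoter, that of *Smad6*, and in 0.211% of all. The cAMP response element TGACGTCA and the AP-1 letters TGANTCA were in 0 of the 27, against 1.85% and 7.92% of all promoters. GGCGCC is all G and C and the other motifs are not, and the part of base content in these shares was not tested.

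Levels were compared between members in TPM, a share of all transcripts in which fragments are scaled for transcript length. *Id2*, a helix-loop-helix protein that blocks differentiation factors, was highest with a mean of 33.9 TPM over the 18 samples, followed by the activin receptor *Acvr1b* with 10.5 TPM, the BMP receptor *Bmpr1a* with 9.64 TPM, *Smad3* with 9.24 TPM and *Smad4* with 8.85 TPM. The sample ranges of these 4 members below *Id2* overlapped. The 6 type I receptors averaged 4.08 to 10.5 TPM and the 4 receptor-activated Smads 3.89 to 9.24 TPM. Of the ligands, *Tgfb2* (5.40 TPM) and *Gdf11* (5.11 TPM) were in the range of the receptors. The 6 BMPs were lower, from 0.157 TPM for *Bmp5* and 0.162 TPM for *Bmp2* to 0.702 TPM for *Bmp6*. In all, 28 members were above 1 TPM in at least 3 samples and 12 were not, and the lowest count of any member in any sample was 16 (*Bmp2*). Levels per length varied between samples more than the normalized counts in some members and less in others. *Acvr1b* lay between 5.22 and 16.2 TPM and between 80.2 and 115.5 CPM. *Bmpr1b* lay between 4.42 and 6.86 TPM and between 42.7 and 79.65 CPM. Groups were compared by CPM.

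**Figure D1:**
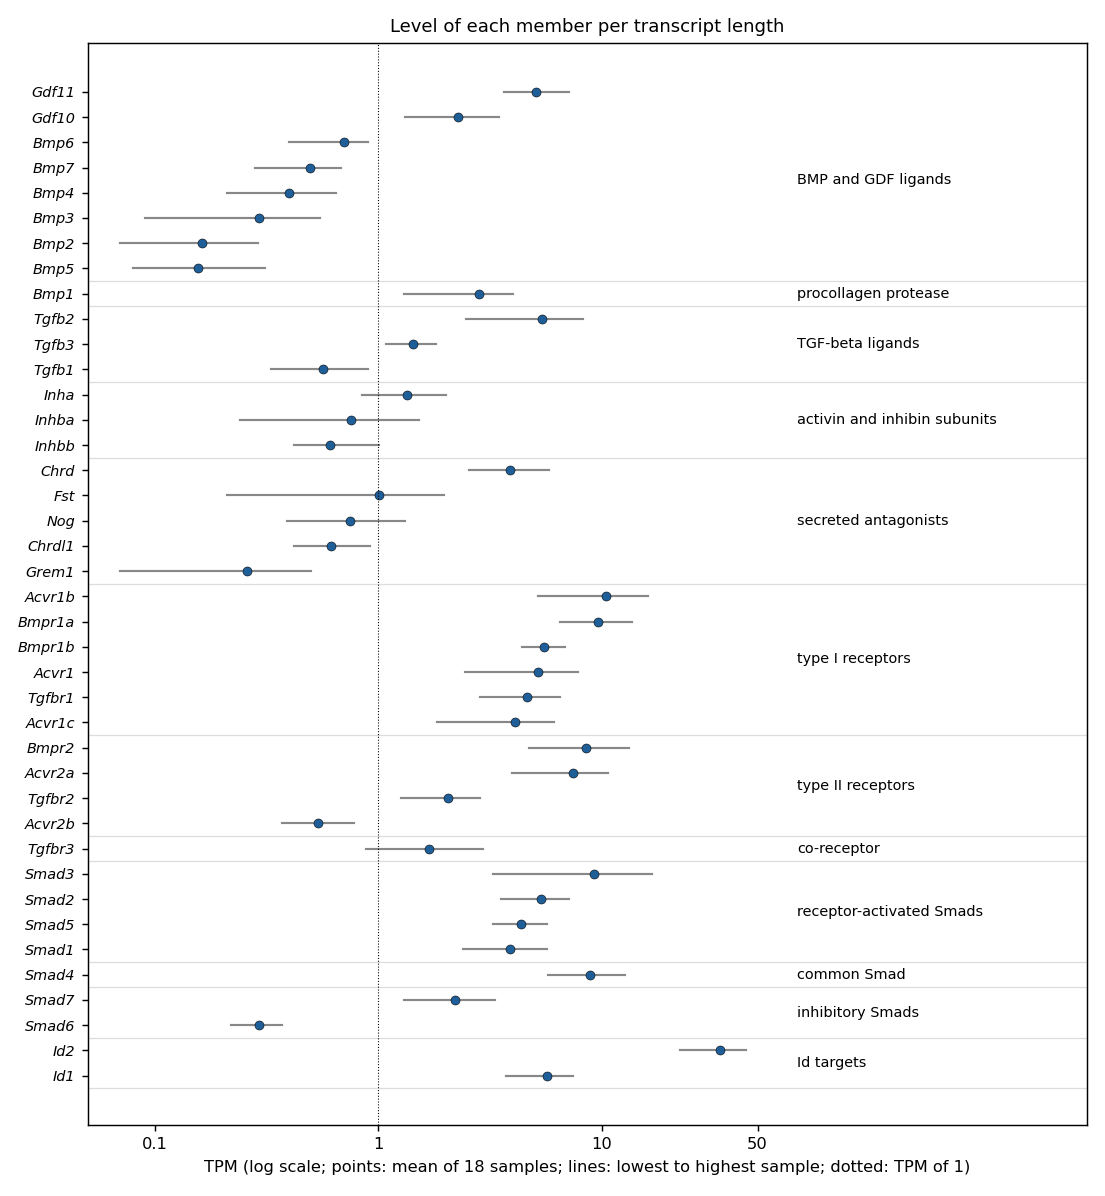
Level of the 40 members in TPM on a log axis, grouped by role, with the mean of 18 samples as a point and the lowest to highest sample as a line. Id2 stands apart at a mean of 33.9 TPM, receptors and Smads lie mostly above 1 TPM, and the 6 BMPs lie below it, down to 0.157 TPM for Bmp5.

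The first question was how the regions differ. A member was called when the joint test of the dorsal to ventral differences in SH and in EE gave an adjusted p under 0.05 in edgeR's quasi-likelihood test and the mean of both differences was over 20% in size. By this rule dorsal DG was higher for 10 members and ventral DG for 7, 17 of 40 (42.5%), where 30.9% of all tested genes were called. The shares by direction were 15.0% of all genes higher in dorsal and 15.9% higher in ventral. In SH alone 10 members were past the same limits in the dorsal direction and 3 (*Nog*, *Inhbb* and *Chrd*) in the ventral, where 14.1% and 14.2% of all genes were. These were 13 of 40 members (32.5%). *Acvr1c*, called in the joint test, was under the limit of size in SH, so the 10 in SH were not all the same members. In EE alone the counts were 10 and 7 members, where 14.1% and 15.8% of all genes were past the limits. *Bmp2*, *Bmp5* and *Bmp7* had adjusted p of 0.0933, 0.067 and 0.104 in SH. *Bmpr1b* was under the limit of size in SH, with a log2 difference of -0.26. The interaction test called none of these 4 members. The 3 called differences of greatest size were those of *Fst*, *Inhba* and *Smad3*, all of them higher in dorsal DG. Noggin (*Nog*), *Bmp7*, *Bmp2* and the activin subunit *Inhbb* were higher in ventral DG. The median size of the log2 difference was 0.23 over members and 0.19 over all tested genes. Where no housing is named, log2 differences between regions are the mean of both housings, with the SE of that mean. The adjusted p beside them is that of the joint test. With no limit on size, 21 of 40 members passed, a share near the 52.3% of all genes that did. The 4 added were *Bmpr2*, *Smad1* and *Smad4*, higher in dorsal, and *Smad2*, higher in ventral. These are bulk samples, in which fewer cells of a type and less RNA per cell cannot be told apart.

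**Figure D2:**
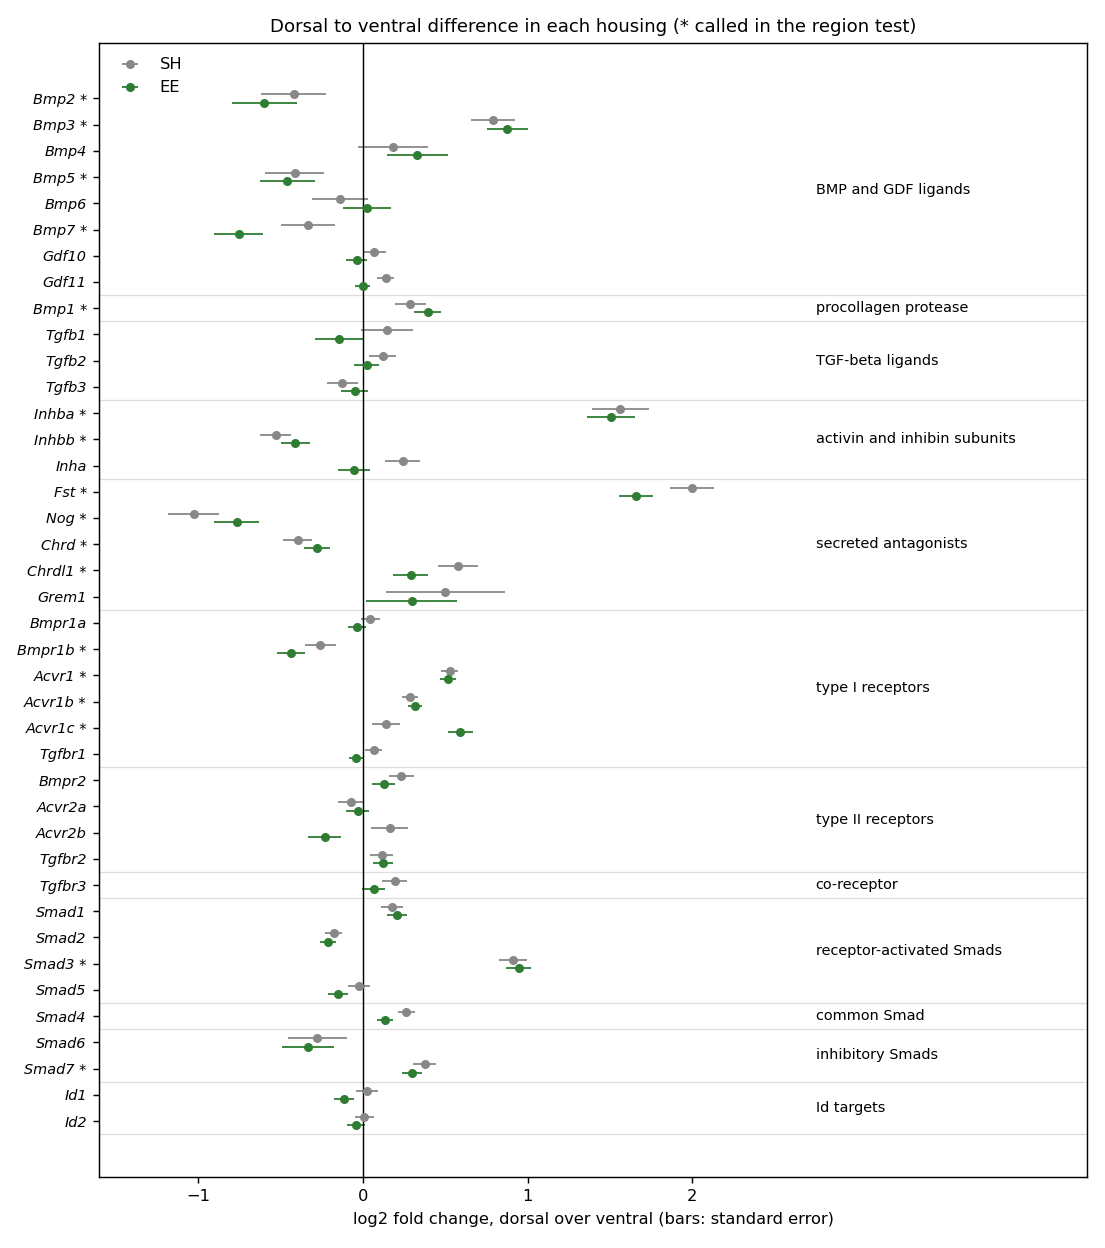
Dorsal to ventral log2 fold change of each member in SH (grey) and in EE (green) with its standard error, by role. Points right of 0 are higher in dorsal DG and asterisks mark the 17 called members: Fst and Inhba lie farthest right and Nog farthest left in SH.

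Among the secreted antagonists, 2 of 5 were higher in dorsal, 2 in ventral and 1 was not called. Follistatin (*Fst*, chr13:114452290-114458951, minus strand), the activin-binding antagonist, measured 6.27, 6.25, 6.19 and 7.33 CPM in dorsal SH and 9.36, 8.87, 10.4, 9.46 and 9.96 CPM in dorsal EE. In the ventral samples it measured 1.84, 1.62, 1.82 and 1.24 CPM in ventral SH and 2.87, 3.31, 2.35, 3.82 and 2.89 CPM in ventral EE. Every dorsal sample was above every ventral sample, in both housings. The log2 fold change of *Fst* was 1.83 ± 0.08 (SE), 3.55-fold (adjusted p = 1.59e-13), and the ratio of dorsal to ventral sample ran from 2.48 to 5.91 over the 9 pools. Noggin (*Nog*, chr11:89300638-89302332, minus strand), which sequesters BMPs, measured 1.76, 1.97, 1.84 and 1.71 CPM in dorsal SH and 2.58, 2.11, 2.36, 1.63 and 1.47 CPM in dorsal EE. Its ventral values were 3.14, 3.49, 3.85 and 4.35 CPM in ventral SH and 3.30, 2.81, 3.72, 3.66 and 3.70 CPM in ventral EE. *Nog* was higher in the ventral sample of 9 of 9 pools, with the lowest ventral sample above the highest dorsal sample. Its log2 fold change was -0.90 ± 0.10 (SE, adjusted p = 8.41e-07). Chordin (*Chrd*), another BMP antagonist, measured 24.6, 26.1, 26.9 and 28.4 CPM in dorsal SH and 25.8, 25.98, 29.0, 30.9 and 30.5 CPM in dorsal EE. In ventral DG it measured 31.4, 29.7, 39.8 and 38.6 CPM in ventral SH and 31.4, 32.7, 33.4, 37.4 and 37.6 CPM in ventral EE. It too was higher in ventral in 9 of 9 pools, but by less than *Nog*, with a log2 fold change of -0.34 ± 0.06 (SE, adjusted p = 0.000171). *Chrdl1*, chordin-like 1, went the other way. It measured 5.67, 6.79, 6.28 and 6.11 CPM in dorsal SH and 5.12, 4.72, 5.57, 6.52 and 6.43 CPM in dorsal EE. Ventral values were 4.56, 4.06, 3.93 and 4.06 CPM in ventral SH and 5.05, 5.84, 4.27, 4.37 and 3.82 CPM in ventral EE. The groups overlapped in EE only, and the log2 fold change was 0.43 ± 0.08 (SE, adjusted p = 0.000312), with 8 of 9 pools higher in dorsal. Gremlin (*Grem1*), also a BMP antagonist, was uncertain at its low level, with a log2 difference of 0.40 ± 0.23 (SE, adjusted p = 0.325).

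Of the activin and inhibin subunits, 1 was higher in dorsal, 1 in ventral and 1 was not called. *Inhba* (chr13:16011851-16031621, plus strand) encodes the beta A subunit, which forms activin A and has the CpG-poor promoter shown above. It measured 3.33, 3.37, 3.97 and 3.43 CPM in dorsal SH and 4.09, 3.81, 5.00, 5.63 and 4.37 CPM in dorsal EE. Its ventral samples held 1.27, 1.35, 1.18 and 0.950 CPM in ventral SH and 1.94, 1.45, 1.72, 1.89 and 1.04 CPM in ventral EE. No dorsal sample reached down to a ventral one, and the ratio within pools was 2.11 to 4.21. The log2 fold change was 1.53 ± 0.11 (SE), 2.9-fold (adjusted p = 4.42e-10). *Inhbb* (chr1:119415465-119422248, minus strand), the beta B subunit with the CpG-rich promoter, showed the opposite order. It measured 5.31, 4.65, 4.78 and 4.36 CPM in dorsal SH and 5.08, 4.72, 4.23, 4.08 and 4.68 CPM in dorsal EE. In the ventral samples it measured 6.36, 6.88, 7.58 and 6.80 CPM in ventral SH and 6.10, 7.02, 5.64, 5.55 and 6.11 CPM in ventral EE. All 9 pools were higher in ventral, and the log2 fold change was -0.47 ± 0.06 (SE, adjusted p = 7.93e-06). *Inha*, the alpha subunit that turns activin into inhibin, was not called, with a log2 difference of 0.09 ± 0.07 (SE, adjusted p = 0.145).

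Among the 6 type I receptors, dorsal DG was higher for 3 and ventral DG for 1. *Acvr1* (ALK2), a receptor for BMPs, measured 38.0, 35.1, 36.6 and 37.2 CPM in dorsal SH and 39.4, 38.6, 39.3, 40.8 and 39.2 CPM in dorsal EE. In ventral DG it measured 25.1, 24.5, 26.5 and 25.9 CPM in ventral SH and 25.7, 25.7, 29.9, 28.8 and 27.7 CPM in ventral EE. Spread within groups was small and the regions did not overlap, with a log2 fold change of 0.52 ± 0.03 (SE, adjusted p = 9.41e-11). *Acvr1b* (ALK4), the main activin receptor, measured 115, 107, 110.1 and 109.5 CPM in dorsal SH and 104, 108, 109.7, 109 and 106 CPM in dorsal EE. Ventral values were 85.6, 87.2, 95.2 and 94.7 CPM in ventral SH and 85.5, 80.2, 85.6, 90.8 and 89.1 CPM in ventral EE. It was 1.16 to 1.35 times as high in dorsal over the 9 pools, and the log2 fold change was 0.30 ± 0.03 (SE, adjusted p = 1.74e-07). *Acvr1c* (ALK7, chr2:58267453-58357895, minus strand), a receptor for nodal and some activins that lies opposite an antisense gene and was counted by strand, had a log2 fold change of 0.37 ± 0.06 (SE, adjusted p = 2.16e-06). Most of this mean came from EE, where it was 0.59 ± 0.07 (SE), against 0.14 ± 0.08 (SE) in SH. *Bmpr1b* (ALK6), a BMP receptor, measured 51.7, 60.3, 52.4 and 50.8 CPM in dorsal SH and 53.5, 50.1, 48.4, 48.7 and 42.7 CPM in dorsal EE. In the ventral samples it measured 67.6, 69.9, 57.4 and 62.4 CPM in ventral SH and 73.7, 79.6, 62.5, 55.9 and 58.5 CPM in ventral EE. It was higher in ventral in 9 of 9 pools although groups overlapped in SH, and the log2 fold change was -0.35 ± 0.06 (SE, adjusted p = 0.000133). In TPM the means of *Bmpr1b* were 6.04 in dorsal SH and 6.03 in ventral SH, and 4.68 in dorsal EE and 5.66 in ventral EE. TPM was not particular to *Bmpr1b* in running high in dorsal SH. *Id2* averaged 40.2 TPM in dorsal SH, 32.5 in dorsal EE, 34.0 in ventral SH and 30.2 in ventral EE. In the same order its CPM means were 87.3, 83.8, 86.7 and 86.2, and the cause was not tested. *Bmpr1a* (ALK3) and *Tgfbr1* (ALK5) differed by 0.004 and 0.012 on the log2 scale and were not called. The 4 type II receptors (*Bmpr2*, *Acvr2a*, *Acvr2b* and *Tgfbr2*), which phosphorylate type I receptors, and the co-receptor *Tgfbr3* (betaglycan) were not called either, with log2 differences between -0.05 (*Acvr2a*) and 0.18 (*Bmpr2*, adjusted p = 0.0136, under the limit of size).

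Of the 4 receptor-activated Smads, *Smad3* was called. *Smad3* (chr9:63646767-63757994, minus strand), which carries activin and TGF-beta signals, measured 131, 115, 122 and 134 CPM in dorsal SH and 127, 121, 138, 131 and 129 CPM in dorsal EE. In ventral DG it measured 61.0, 61.4, 72.1 and 73.0 CPM in ventral SH and 63.4, 58.0, 61.6, 81.2 and 71.3 CPM in ventral EE. Its lowest dorsal sample was above its highest ventral one, and the ratio within pools was 1.61 to 2.25. The log2 fold change of *Smad3* was 0.93 ± 0.06 (SE), 1.9-fold (adjusted p = 1.96e-11). *Smad2*, which carries the same signals, had a log2 fold change of -0.19 ± 0.04 (SE, adjusted p = 0.000211), of the opposite sign and under the limit of size, with 9 of 9 pools higher in ventral. The BMP Smads were under the limit of size too, *Smad1* with a log2 difference of 0.19 ± 0.04 (SE, adjusted p = 0.00282) and *Smad5* with -0.09 ± 0.05 (SE, adjusted p = 0.105). The common *Smad4* had 0.20 ± 0.04 (SE, adjusted p = 0.000246), also under that limit. *Smad7*, the inhibitory Smad that acts on all branches, measured 16.4, 16.5, 18.3 and 17.2 CPM in dorsal SH and 17.7, 17.3, 18.3, 18.9 and 16.4 CPM in dorsal EE. Its ventral values were 13.6, 13.5, 11.9 and 13.7 CPM in ventral SH and 14.0, 14.9, 16.03, 14.3 and 12.9 CPM in ventral EE. Every dorsal sample was above every ventral one, and the log2 fold change was 0.34 ± 0.05 (SE, adjusted p = 1.04e-05). *Smad6*, which acts mainly on BMP signals, was low and not called, with a log2 difference of -0.30 ± 0.12 (SE, adjusted p = 0.087). The Id genes, targets of BMP Smads, were not called, with log2 differences of -0.04 ± 0.05 (SE, adjusted p = 0.259) in *Id1* and -0.02 ± 0.04 (SE, adjusted p = 0.806) in *Id2*.

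Among the 8 BMP and GDF ligands, 1 was higher in dorsal, 3 in ventral and 4 were not called. *Bmp3*, known to oppose other BMPs, measured 5.67, 5.18, 5.12 and 5.96 CPM in dorsal SH and 4.79, 3.94, 4.88, 5.26 and 5.21 CPM in dorsal EE. In the ventral samples it measured 2.47, 3.46, 3.24 and 3.54 CPM in ventral SH and 1.79, 2.85, 2.66, 2.80 and 3.04 CPM in ventral EE. The regions did not overlap, and the log2 fold change was 0.83 ± 0.09 (SE, adjusted p = 3.2e-07). *Bmp7*, known for its expression at the borders of the brain and in the choroid plexus, measured 3.80, 3.08, 4.01 and 3.05 CPM in dorsal SH and 3.17, 3.44, 3.05, 2.28 and 2.27 CPM in dorsal EE. Ventral values were 4.10, 5.18, 3.16 and 5.08 CPM in ventral SH and 5.32, 4.26, 5.84, 4.13 and 4.33 CPM in ventral EE. The groups overlapped in SH and not in EE, and the log2 fold change was -0.54 ± 0.11 (SE, adjusted p = 0.000306). *Bmp2*, a ligand of *Bmpr1a* and *Bmpr1b*, measured 1.11, 1.19, 1.196 and 1.34 CPM in dorsal SH and 0.994, 1.04, 0.650, 0.816 and 0.664 CPM in dorsal EE. Its ventral samples held 1.48, 1.65, 1.82 and 1.53 CPM in ventral SH and 1.51, 0.860, 1.29, 0.866 and 1.70 CPM in ventral EE. It was higher in ventral in 8 of 9 pools, with a log2 fold change of -0.51 ± 0.14 (SE, adjusted p = 0.0114). *Bmp5*, a close relative of *Bmp7*, measured 1.25, 1.03, 0.897 and 1.08 CPM in dorsal SH and 1.25, 0.8286, 0.894, 0.734 and 0.944 CPM in dorsal EE. In ventral DG it measured 1.52, 1.43, 1.22 and 1.53 CPM in ventral SH and 1.16, 1.27, 1.65, 1.30 and 1.07 CPM in ventral EE. It was higher in ventral in 8 of 9 pools, with a log2 fold change of -0.44 ± 0.12 (SE, adjusted p = 0.0139). A limit of over 1 TPM in at least 3 samples would end the calls of *Bmp2*, *Bmp5*, *Bmp7*, *Inhbb*, *Bmp3* and *Chrdl1*. Apart from it, the calls of *Bmp2* and *Bmp5* were each lost once: without EE replicate 5 *Bmp2* had an adjusted p of 0.0584, and on counts of both strands *Bmp5*, which lies opposite an antisense gene, had 0.352. *Bmp4*, *Bmp6*, *Gdf10* and *Gdf11* had log2 differences between -0.06 and 0.26 and were not called. *Bmp1* is no BMP but a protease that cleaves procollagen and chordin. It measured 24.5, 26.3, 26.3 and 26.8 CPM in dorsal SH and 26.3, 25.3, 25.4, 30.5 and 29.9 CPM in dorsal EE. Ventral values were 20.9, 19.0, 22.7 and 22.5 CPM in ventral SH and 19.8, 18.5, 17.8, 24.3 and 24.2 CPM in ventral EE. The regions did not overlap, and the log2 fold change was 0.34 ± 0.06 (SE, adjusted p = 0.00018). None of the 3 TGF-beta ligands was called: log2 differences were 0.001 ± 0.11 (SE, adjusted p = 0.506) for *Tgfb1*, 0.07 ± 0.05 (SE, adjusted p = 0.426) for *Tgfb2* and -0.09 ± 0.06 (SE, adjusted p = 0.471) for *Tgfb3*.

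Some markers of cells of the DG itself and of other tissues differed between the regions. All 10 choroid plexus markers were higher in ventral DG, and their summed level was 27.3 to 217 CPM in dorsal SH, 25.6 to 72.3 in dorsal EE, 399 to 1136 in ventral SH and 429 to 1469 in ventral EE. The highest dorsal value was that of SH replicate 1, and without that pool 10 members were higher in dorsal and 7 in ventral, the same members as with it. The remaining samples were at 25.6 to 72.3 CPM in dorsal and 429 to 1469 CPM in ventral DG. Choroid plexus markers and region therefore cannot be told apart in that fit either. Of 4 granule cell markers, 3 (*Prox1*, *Dsp* and *C1ql2*) were higher in dorsal, with sums of 856 to 964 CPM in dorsal SH, 783 to 892 in dorsal EE, 509 to 584 in ventral SH and 396 to 585 in ventral EE. Of 7 tested markers of habenula and thalamus, 5 were higher in dorsal (97.2 to 141 CPM in dorsal SH and 34.0 to 39.9 in ventral SH), and of 3 mossy cell markers, *Calb2* was higher in ventral. Of 10 fibroblast markers of the brain's coverings, *Islr* was higher in dorsal and *Lum* and *Ogn* in ventral. Of 6 markers each, *Acta2* and *Tagln* of mural cells, *Slc1a3* and *Aldoc* of astrocytes and *Sst*, *Pvalb* and *Vip* of interneurons were higher in ventral and *Npy* of interneurons in dorsal. Of 4 markers of CA pyramidal cells, *Wfs1* was higher in dorsal and *Fibcd1* and *Mpped1* in ventral, and 0 markers of endothelial cells, oligodendrocytes, their precursors or microglia were called. All markers but 1 of habenula and thalamus had counts in every sample. The part of these cells in the differences of the members was not tested.

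The second question was what EE changed within a region. In dorsal DG 2 of 40 members (5.0%) were called, at an adjusted p under 0.05 and a change of at least 20%, where 0.634% of all genes were: both *Acvr1c* and *Fst* were higher in EE. *Acvr1c* measured 69.0, 58.0, 66.3 and 66.3 CPM in dorsal SH and 100.5, 79.2, 100.3, 104 and 102 CPM in dorsal EE. Its 5 EE samples were all above its 4 SH samples. The means were 64.9 ± 4.78 CPM (SD, n = 4) in SH and 97.1 ± 10.1 CPM (SD, n = 5) in EE, a log2 fold change of 0.58 ± 0.08 (SE), 1.5-fold (adjusted p = 0.000449). *Fst* rose from 6.51 ± 0.548 CPM (SD, n = 4) to 9.61 ± 0.592 CPM (SD, n = 5), by 0.56 ± 0.10 (SE) on the log2 scale, 1.47-fold (adjusted p = 0.00525), and again no EE sample reached down to an SH sample. In TPM the dorsal means of *Acvr1c* were 4.225 ± 0.965 (SD, n = 4) in SH and 5.29 ± 0.844 (SD, n = 5) in EE. Those of *Fst* were 1.44 ± 0.357 (SD, n = 4) in SH and 1.75 ± 0.237 (SD, n = 5) in EE. *Tgfbr1*, the TGF-beta type I receptor, measured 56.1, 60.9, 59.4 and 57.4 CPM in dorsal SH and 55.3, 47.9, 49.9, 51.8 and 47.3 CPM in dorsal EE. Its values in EE were all below those in SH, but the log2 fold change of -0.21 ± 0.05 (SE, adjusted p = 0.0305) was under the limit of size. *Tgfb2*, its ligand, measured 62.0, 55.9, 62.2 and 60.4 CPM in dorsal SH and 49.6, 44.0, 50.2, 45.5 and 51.0 CPM in dorsal EE. Here too every EE sample was below every SH sample, with a log2 fold change of -0.32 ± 0.08 (SE, adjusted p = 0.0521). That value missed the threshold, but *Tgfb2* was called in 8 of 20 alternatives, DESeq2 and the likelihood ratio test among them, with adjusted p from 0.000612 to 0.196 over the 20. In all, 8 members (20%) had dorsal EE and SH samples that did not overlap, 4 above and 4 below, where 3.99% of all genes did: beside *Acvr1c*, *Fst*, *Tgfbr1* and *Tgfb2* these were *Acvr1* and *Tgfb3*, higher in EE, and *Bmp2* and *Gdf10*, lower in EE. Their log2 fold changes were 0.10 ± 0.05 (SE) for *Acvr1*, 0.27 ± 0.09 (SE) for *Tgfb3*, -0.54 ± 0.21 (SE) for *Bmp2* and -0.25 ± 0.07 (SE) for *Gdf10*, with adjusted p between 0.0841 and 0.545. *Inhba*, the ligand subunit that *Fst* binds, had a log2 fold change of 0.38 ± 0.14 (SE, adjusted p = 0.322).

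**Figure D3:**
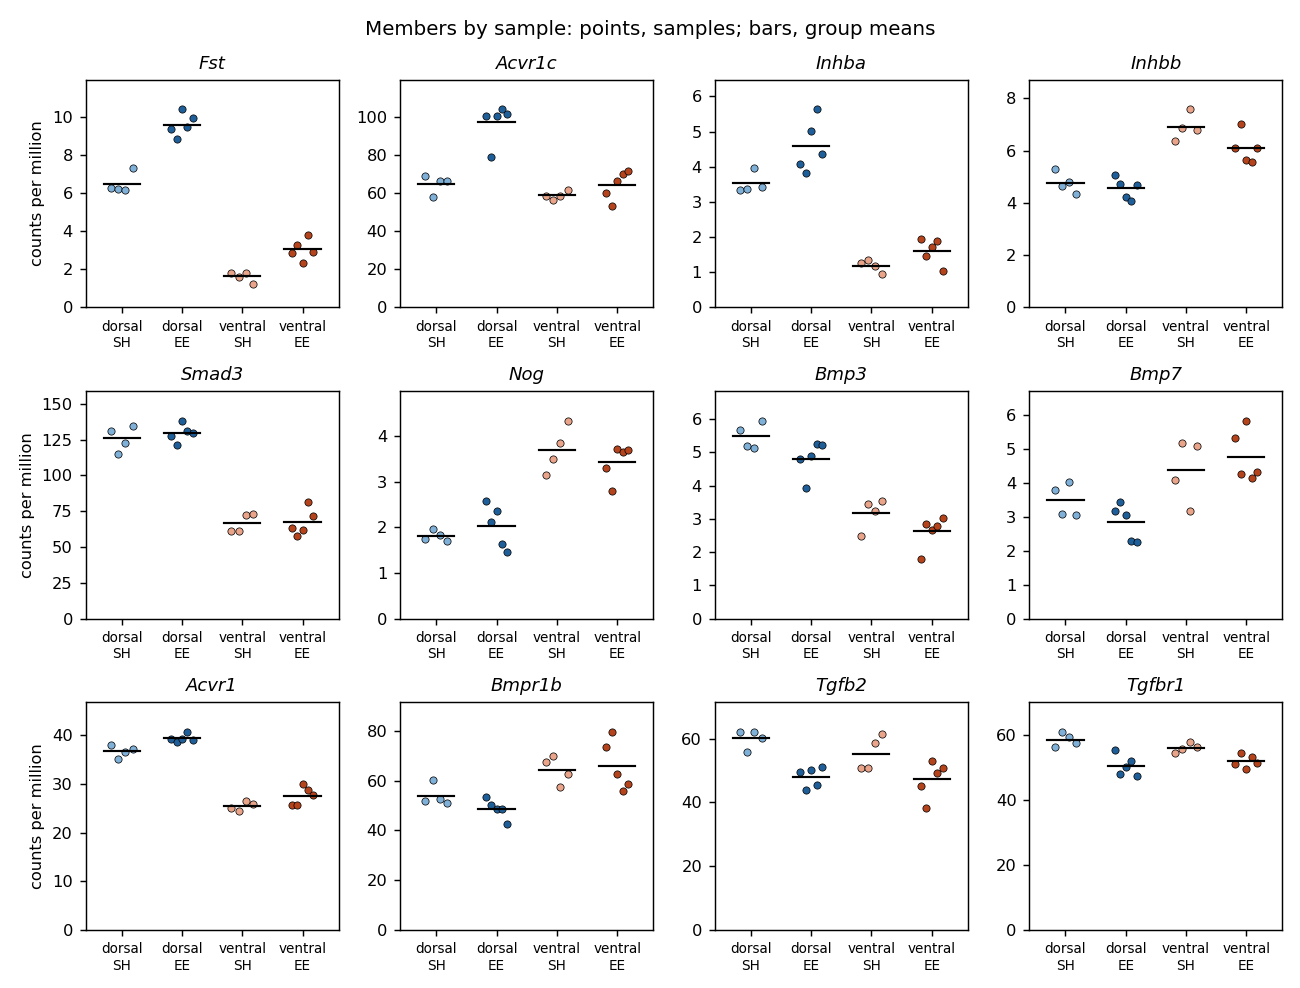
CPM of 12 members in every sample of the 4 groups, with group means as bars and each axis starting at 0. Fst is higher in dorsal than ventral and in EE than SH, Acvr1c stands out in dorsal EE with a mean of 97.1 CPM, and Smad3 separates the regions with little change by housing.

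In ventral DG 1 of 40 members (2.5%) was called, where 0.241% of all genes were. It was *Fst*, which was higher in EE, from 1.63 ± 0.277 CPM (SD, n = 4) to 3.05 ± 0.548 CPM (SD, n = 5). The log2 fold change was 0.90 ± 0.14 (SE), 1.87-fold (adjusted p = 0.00229), and each of the 5 EE samples was above each of the 4 SH samples. In a fit of the ventral samples alone the same log2 fold change had an adjusted p of 0.0526, above the threshold. *Tgfb2* measured 50.7, 50.7, 58.5 and 61.4 CPM in ventral SH and 45.2, 38.2, 53.1, 49.1 and 50.8 CPM in ventral EE. These overlapped, with a log2 fold change of -0.22 ± 0.08 (SE, adjusted p = 0.391). *Id1*, a BMP target known from neural stem cells, measured 9.57, 9.77, 8.96 and 9.02 CPM in ventral SH and 11.7, 10.1, 10.3, 10.2 and 10.5 CPM in ventral EE. Its EE samples were all above its SH samples, by a log2 fold change of 0.18 ± 0.06 (SE) that was not called (adjusted p = 0.408). Dorsal values of *Id1* overlapped, with 9.68, 10.1, 9.65 and 8.60 CPM in dorsal SH and 9.61, 10.2, 9.92, 9.91 and 9.37 CPM in dorsal EE. *Fst*, *Id1* and *Gdf11* were the 3 members (7.5%) whose ventral groups did not overlap, where 2.45% of all genes did so. *Acvr1c*, called in dorsal DG, measured 58.7, 56.7, 58.7 and 61.6 CPM in ventral SH and 60.1, 53.5, 66.6, 70.2 and 71.5 CPM in ventral EE. These groups overlapped, and its log2 fold change was 0.13 ± 0.08 (SE, adjusted p = 0.757). *Tgfbr1* measured 54.3, 55.5, 57.7 and 56.2 CPM in ventral SH and 51.1, 54.5, 49.5, 53.2 and 51.4 CPM in ventral EE. Only 1 of its EE samples was within the SH values, with a log2 fold change of -0.11 ± 0.05 (SE, adjusted p = 0.61). Over the other members the log2 fold changes lay between -0.36 (*Bmp2*) and 0.93 (*Grem1*, adjusted p = 0.417, at a mean of 1.33 CPM in SH and 2.54 CPM in EE).

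**Figure D4:**
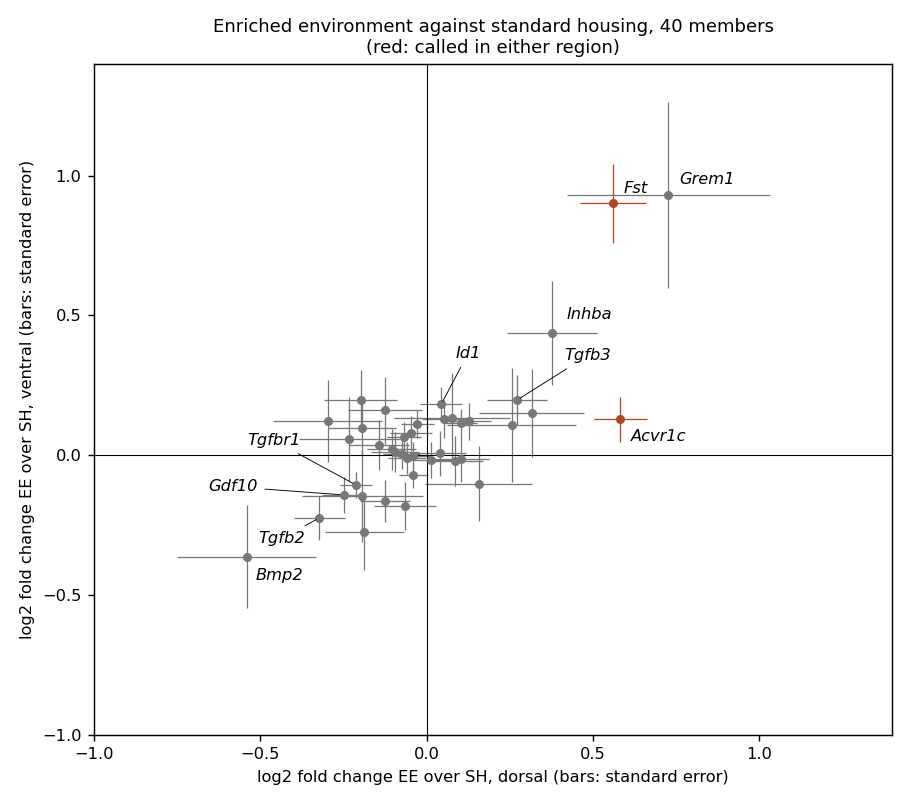
Log2 fold change of EE over SH in dorsal DG (horizontal axis) and ventral DG (vertical axis) with standard errors, one point for each of the 40 members. Fst lies high on both axes, Acvr1c high on the dorsal axis with a ventral value of 0.13, and the uncalled Grem1 carries the longest error bars.

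Across the members, EE values were positive for 17 and negative for 23 in dorsal DG and positive for 25 and negative for 15 in ventral DG. The median size of the log2 change was 0.13 in dorsal and 0.12 in ventral over members, and 0.07 in both over all tested genes. Markers moved with housing in few cases. Of the fibroblast markers, *Ogn* was lower in EE in both regions, and of the interneuron markers, *Npy* was higher in EE in both. No marker of choroid plexus, granule cells, mossy cells or habenula was called for EE. Their part in the changes of the members was not tested.

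The interaction test compared the EE change of dorsal DG with that of ventral DG. The edgeR test called 0 of 40 members, as did DESeq2 and the likelihood ratio test, and 2 members had an unadjusted p under 0.05. It called 1 of all 17040 genes (0.00587%). *Acvr1c* had the smallest p of the members: its dorsal change exceeded its ventral change by 0.45 ± 0.11 (SE) on the log2 scale (unadjusted p = 0.000583, adjusted p = 1). A block by pool pairs the dorsal and ventral samples of a replicate number. With it the difference of *Acvr1c* was 0.46 ± 0.06 (SE) with an adjusted p of 0.00478, and 1 of 40 members and 2 of 17040 genes (0.0117%) were called. Its ratio of dorsal to ventral sample was 1.02 to 1.18 in the 4 SH pools and 1.42 to 1.67 in the 5 EE pools, which did not overlap. *Acvr2b*, a type II receptor for activins, measured 2.69, 2.51, 2.69 and 2.68 CPM in dorsal SH and 2.25, 2.28, 2.52, 2.20 and 2.27 CPM in dorsal EE. In ventral DG it measured 2.30, 2.59, 2.03 and 2.52 CPM in ventral SH and 2.80, 2.99, 2.90, 2.24 and 2.63 CPM in ventral EE. Its EE values leaned down in dorsal and up in ventral, and the difference of -0.39 ± 0.15 (SE) was not called (unadjusted p = 0.0209, adjusted p = 1). *Inha* measured 4.80, 4.401, 4.65 and 4.91 CPM in dorsal SH and 4.27, 3.40, 4.43, 4.36 and 4.06 CPM in dorsal EE. Its ventral values were 3.71, 4.06, 3.32 and 4.79 CPM in ventral SH and 3.88, 4.57, 4.27, 4.13 and 4.45 CPM in ventral EE. The difference of -0.29 ± 0.14 (SE) was not called either (adjusted p = 1). For *Fst*, called in both regions, the dorsal minus the ventral change was -0.34 ± 0.17 (SE, unadjusted p = 0.0615, adjusted p = 1).

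A list of 67 other genes of the pathway was examined in the same way, of which 51 were tested and 16 had too few counts or no match. In the region test 5 were higher in dorsal and 10 in ventral (29.4% of those tested), where 30.9% of all genes were called. Among those higher in dorsal, *Tll2*, a tolloid-like protease related to *Bmp1*, had a log2 fold change of 0.98 ± 0.22 (SE, adjusted p = 0.00174). *Bambi*, a pseudoreceptor that blocks type I receptors, had 0.80 ± 0.07 (SE, adjusted p = 2.61e-09), and *Lefty1*, an inhibitor of nodal, 0.71 ± 0.18 (SE, adjusted p = 0.00367). The repressors *Ski* and *Skil*, which bind Smads, completed the list. Among those higher in ventral, *Lefty2*, also an inhibitor of nodal, had a log2 fold change of -1.71 ± 0.21 (SE, adjusted p = 1.49e-06). Decorin (*Dcn*), a matrix proteoglycan that binds TGF-beta, had -1.27 ± 0.10 (SE, adjusted p = 2.38e-09), and *Sostdc1*, a BMP and Wnt antagonist, -1.23 ± 0.22 (SE, adjusted p = 0.000201). *Lefty1* and *Lefty2* are close paralogs, so reads that fit both may have been lost or misassigned, and they differed in opposite directions. EE called 1 gene of the list (1.96% of those tested) in each region, where 0.634% of all genes were called in dorsal and 0.241% in ventral DG. *Lefty2* was higher in dorsal EE at 0.378 ± 0.109 CPM (SD, n = 5) than in dorsal SH at 0.127 ± 0.0131 CPM (SD, n = 4), a log2 fold change of 1.55 ± 0.37 (SE) at a low level (adjusted p = 0.0497). This call was lost in 16 of 20 alternatives, among them DESeq2 and the omission of any pool but EE replicate 1, with adjusted p from 0.0231 to 0.582 over the 20. *Ccn2*, connective tissue growth factor, a matrix protein that TGF-beta induces, was higher in ventral EE at 3.77 ± 0.620 CPM (SD, n = 5) than in ventral SH at 1.93 ± 0.339 CPM (SD, n = 4), by 0.96 ± 0.17 (SE, adjusted p = 0.00763). Without SH replicate 5 its adjusted p was 0.0597. The interaction test of edgeR called 0 of the 51, with 3 at an unadjusted p under 0.05.

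The 18 libraries held 22919364 to 28301861 fragments on genes (median 25816352). The lowest counts in any sample were 16 fragments for *Bmp2*, 18 for *Bmp5*, 26 for *Inhba* and 34 for *Fst*, against 1181 for *Acvr1c* and 1281 for *Smad3*, so that values of the first 4 were less precise.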

How the data were processed

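RNA-Seq was measured in 20 samples of dorsal and ventral DG tissue, and the 18 without SH replicate 3 were compared. Bisulfite and TAB sequencing samples of the series were not analysed here. Per the labels, the submitters' processing notes name Trim Galore 0.4.0, STAR 2.5.1b, RSEM 1.2.30 and build mm10. The deposited count tables hold STAR fragments per gene for 46480 genes, without normalization, by strand and unstranded, and the fragments of the strand that fits the stranded kit were used. Between 32.58% and 40.89% of fragments per sample were in rows that name no gene and were left out. A second table deposited by the authors gives an expected count per gene, in which fragments that fit several genes are shared out, and it was rounded for an alternative. It also gives TPM, which the authors scaled for transcript length and library total. Gencode gave symbols (45968 genes) and mm10 coordinates.

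Genes with over 10 counts in at least 2 samples were tested (17040) with TMM normalization and the quasi-likelihood test of edgeR 4.0.16 in R 4.3.3, with the 4 groups in 1 model and Benjamini-Hochberg adjustment over all tested genes. CPM are after TMM, and standard errors were taken as the size of a log2 fold change over the root of F. In the region results the log2 fold change and its SE are of the mean of both differences, tested as 1 contrast. The adjusted p beside them is of the joint test and does not test that mean. Tables and figures used python 3.11.15, pandas 2.3.3 and matplotlib 3.10.9. The members and the lists of other pathway genes and markers were chosen with earlier results of these data known. Values by sample were given for members called in any test and, where fewer than 3 were called for EE or the interaction, for the 3 with the smallest p. The named pathway genes are the 3 of greatest called size in each direction of the region test and any called for EE. Dorsal and ventral samples of a replicate number are paired, since the study states that they come from the same mice, and their deviations from the group means correlated with r = -0.084 to 0.189 over 9 pairs. No 2 replicates agreed within sampling noise. Alternatives were other normalizations (RLE), tests (DESeq2 1.42.0, likelihood ratio), filters, samples, counts and fits.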

Additional observations from a re-analysis of the deposited data

Results flagged for a closer look

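In groups of 4 or 5 samples, a sample that lies far from the others for its group's range was looked for in the 22 members with values by sample. Of 88 groups, 7 had one, where about 4.4 are expected by chance at 1 in 20. For *Acvr1c* in dorsal EE, replicate 2 was at 79.2 CPM and the others at 100.3 to 104 CPM. Without that pool the log2 fold change of EE in dorsal DG was 0.65, and it remained called. For *Fst* in dorsal SH, replicate 5 was at 7.33 CPM and the others at 6.19 to 6.27 CPM. For *Inhba* in dorsal SH, replicate 4 was at 3.97 CPM and the others at 3.33 to 3.43 CPM. *Smad7* in ventral SH was at 11.9 CPM in replicate 4 and at 13.5 to 13.7 CPM in the others. *Id1* in ventral EE was at 11.7 CPM in replicate 1 and at 10.1 to 10.5 CPM in the others. *Acvr2b* had such a sample in 2 groups, at 2.51 CPM in dorsal SH replicate 2 (2.68 to 2.69 CPM in the others) and at 2.52 CPM in dorsal EE replicate 3 (2.20 to 2.28 CPM in the others).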

How the results depend on the processing

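Over the alternatives tried, 139 recomputed counts stayed within 1.5 times their value and 8 did not. Of the differences of named members and pathway genes, recomputed in the fits other than the limits on TPM and size, 797 kept direction and call, 20 lost the call (16 of them for *Lefty2* in dorsal EE), 10 gained it (8 of them for *Tgfb2* in dorsal EE) and none changed sign. With TPM over 1 in at least 3 samples added to the call, 3 members and 6 other pathway genes were higher in ventral in place of 7 and 10, since the lost genes are of low level. With all 20 samples, 4 members were called for EE in dorsal DG, with *Tgfb2* and *Gdf10* added. For EE in ventral DG, separate fits of each region called 0 members (*Fst* had an adjusted p of 0.0526), and sums over both regions of a pool, which do not tell the regions apart, called 2 (*Fst* and *Acvr1c*). With no limit on size, 10 other pathway genes were higher in dorsal in place of 5. Those added, *Ltbp4*, *Neo1*, *Pmepa1*, *Tab2* and *Zfyve9*, passed the limit on adjusted p and were under that on size. With the mean difference tested as 1 contrast 8 were, with *Amh*, *Gdf9* and *Ltbp2* added, and the cause was not tested. The replicate block by pool called 1 member in the interaction in place of 0 (*Acvr1c*, given with that result) and changed no region call of a named member. Between housings, samples of a replicate number came from different mice. The study assigned siblings to either housing but does not say whether pools of a replicate number share litters. Deviations of such samples correlated with r = 0.0815 to 0.175 over 8 pairs, 7 of them over 0.1. With that number as a block 3 members were called for EE in dorsal DG, with *Tgfb2* added, and 1 in ventral DG. Without 1 pool at a time, 10 members were higher in dorsal in each fit, 6 to 8 in ventral, 2 to 3 were called for EE in dorsal, 1 in ventral and 0 for the interaction, and other pathway genes numbered 5 to 6 in dorsal and 10 to 11 in ventral. Depth limits the members of low level: the 12 under the TPM limit include the 6 BMPs.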
